A study of Mus musculus with 3 samples.

Results

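The 10 genes described here encode the platelet's main surface glycoproteins, its fibrinogen-binding integrin and a set of proteins stored in its alpha granules. They were chosen by symbol, with earlier results of these data known. They were matched by NCBI Gene ID to 10 of the 16742 genes listed in any library. Pf4 and Ppbp encode alpha-granule chemokines, and Vwf encodes von Willebrand factor. Gp1ba, Gp1bb, Gp9 and Gp5 encode the GPIb-IX-V complex, Gp6 encodes the collagen receptor glycoprotein VI, and Itga2b and Itgb3 encode the integrin αIIbβ3. All of these genes are switched on as megakaryocytes mature in the bone marrow, before platelets are shed. On a damaged vessel, GPIb-IX-V catches von Willebrand factor and slows the platelet, glycoprotein VI meets collagen and starts signaling, and αIIbβ3 then binds fibrinogen and links platelets together. Activated platelets empty their alpha granules, which hold chemokines, adhesive proteins and growth factors.

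RNA-seq was performed on 3 libraries, 1 for each group, to compare leukemic cells expressing TBLR1-RARα (TR), a fusion of a corepressor subunit with retinoic acid receptor α, with normal progenitors. The control library held lin- bone marrow cells, which remain when cells with mature lineage markers are removed, pooled from 3 wild-type mice of the C57BL/6 strain. Both TR libraries held GFP+ bone marrow cells sorted from TBLR1-RARα leukemia mice on the same background, again with 3 mice pooled in each, and the labels give an age of 6 to 8 weeks for every group. By the study's methods, TR and GFP came from 1 retroviral vector put into lin- cells, the transduced cells went into lethally irradiated recipients, and the leukemia of 1 primary mouse each founded TR1 and TR9, which were passed through non-irradiated recipients to the third generation. The control cells were neither transduced nor transplanted nor sorted for GFP, and the Y-linked genes Eif2s3y (477 counts in control, 1 in TR1, 2 in TR9) and Uty (256.5, 0 and 0) were almost absent from the TR libraries. The fusion, transplantation, sex and the way of isolating cells therefore cannot be told apart. In such bulk RNA, fewer cells of a type and less RNA per cell cannot be told apart either.

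Expected counts are estimates by RSEM and can be fractional. They summed to between 5129662 and 5571409 for a library. A library listed between 14642 and 15302 genes, and a gene not listed was taken as 0. At this depth 3 counts, used here as the floor for folds, correspond to 0.538 to 0.585 CPM, the count scaled to the library total. The share of counts in the 100 most abundant genes was 15.8%, 23.1% and 19.5% for control, TR1 and TR9. Each test below is a conditional exact Poisson test on the reads of 2 libraries, not of the conditions, and variation among mice was not measured. Where 3 values follow a gene without further labels, they are in the order control, TR1 and TR9. A gene was called at a false discovery rate (FDR) of at most 0.001 with an absolute log2 FPKM ratio of at least 1, where FPKM is the fragment count scaled for transcript length and library total. Intervals are 95% exact intervals and cover counting error only.

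All 10 genes were downregulated in TR1 and in TR9. Their expected counts together fell from 9866.37 in control to 103.8 in TR1 and 89.28 in TR9. In CPM, this left 1.04% of the control level in TR1, with an interval of 0.848% to 1.26%, and 0.968% in TR9, with an interval of 0.774% to 1.19%. In the whole series, 13.0% of the 16282 genes tested were called lower in TR1, 10.8% of the 16303 tested were called lower in TR9, and 8.39% of all listed genes were called lower in both. None of the 10 was called higher, a call made for 8.09% of genes in TR1, 9.37% in TR9 and 5.67% in both. Because the 10 genes were chosen with earlier results of these data known, the shares are a description and not a test. With TMM scaling the split over all genes in TR1 moved from 2120 lower and 1317 higher to 1615 lower and 1673 higher, and the calls of the 10 genes stayed. The 10 genes had a median log2 FPKM ratio of −7.01 in TR1 and −7.75 in TR9, beside −0.29 and −0.12 over all genes tested. FPKM under 0.01 were set to 0.01 for these ratios, so the medians depend on genes at 0 counts. With those genes placed at 3 counts, the medians of the count ratios were −6.34 and −6.01. The largest FDR of the 10 genes in the exact test was that of Gp9, 2.84e-21 in TR1 and 9.94e-23 in TR9.

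**Figure D1:**
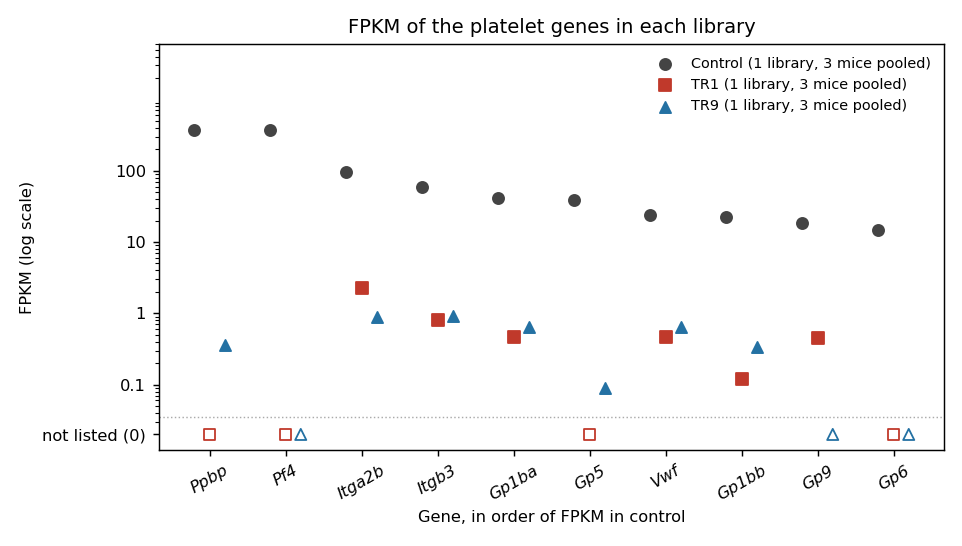
FPKM (log axis) of the 10 platelet genes in order of their control level, with 1 point per library of 3 pooled mice and open symbols for genes not listed. Control values run from 376.55 for Ppbp down to 14.62 for Gp6, and every TR value lies at 2.28 or below.

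In control cells the order of levels per length began with the alpha-granule chemokines. The FPKM of Ppbp was 376.55 and that of Pf4 was 375.2, with overlapping intervals. Itga2b followed at 95.39 and Itgb3 at 59.8, each apart from its neighbors. Gp1ba at 41.02 and Gp5 at 39.24 overlapped in their intervals. Vwf at 24.02, Gp1bb at 22.35, Gp9 at 18.73 and Gp6 at 14.62 came last, and each of these overlapped with the next in order. These levels show that RNA of all 10 genes was present in the lineage-depleted marrow, although the library holds no separate count of megakaryocytes.

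Pf4 encodes platelet factor 4, a heparin-binding chemokine that is released from alpha granules. Its expected counts were 1212, 0 and 0. Against 3 counts, Pf4 was at least 410-fold lower for TR1 and at least 378-fold lower for TR9. Ppbp encodes pro-platelet basic protein, which is cut to β-thromboglobulin and to a neutrophil-attracting chemokine. Its counts were 2250, 0 and 2. Ppbp was at least 761-fold lower for TR1, and the 2 counts of TR9 were 0.0951% of the control level, with an interval of 0.0115% to 0.344%. Both chemokine genes were thus abundant in control and at or near 0 in both TR libraries. They are neighbors on mouse chromosome 5 (GRCm38), where Ppbp spans chr5:90768518-90770063 and Pf4 spans chr5:90772435-90773383, both on the + strand, 2371 bases apart. Coordinates here and below are of GRCm38, which is a later build than the mm9 of the submitters' processing notes.

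Gp1ba encodes the chain of GPIb that binds von Willebrand factor. Its counts were 617, 7 and 9, with an FPKM of 41.02, 0.46 and 0.64. A residue of 1.12% of the control level was left in TR1 (interval 0.447% to 2.32%) and 1.56% in TR9 (interval 0.71% to 2.98%), on overlapping intervals. Gp5 encodes glycoprotein V, which sits loosely in the complex and is cut by thrombin. Gp5 had 477, 0 and 1 counts. The gene was at least 161-fold lower for TR1, and 0.224% of the control level was left for TR9, with an interval of 0.00567% to 1.26%.

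Gp9 encodes the small subunit that the complex needs to reach the cell surface. The library counts were 81, 2 and 0. This is 2.43% of control in TR1, with an interval of 0.29% to 9.08%, and at least 25.2-fold lower for TR9. Gp1bb encodes the chain of GPIb that is bound to the Gp1ba product by disulfide bonds. Its estimated counts were 227.91, 1.25 and 3.67, or 0.54% of control in TR1 (interval 0.0109% to 2.43%) and 1.72% in TR9 (interval 0.507% to 4.87%). The Gp1bb values are uncertain, because the counts were not whole and the gene (chr16:18620317-18622403, − strand) overlaps Septin5 (chr16:18620502-18629954, − strand) by 1902 bases. Septin5, which encodes a septin of the cytoskeleton, had 12.09, 264.75 and 292.33 counts, so the overlapping genes had opposite directions. How the shared reads were divided between them was not tested. The 4 genes of the complex summed to 1402.91, 10.25 and 13.67 counts, which is 0.72% and 1.04% of the control level. Gp1ba (chr11:70639122-70642036, + strand), Gp5 (chr16:30307685-30310779, − strand) and Gp9 (chr6:87778072-87779768, + strand) lie at separate loci.

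Gp6 encodes the collagen receptor of platelets. It had 91 counts in control but 0 elsewhere. Gp6 was at least 30.8-fold lower for TR1 and at least 28.3-fold lower for TR9, and its control count sets these bounds. It spans chr7:4363965-4397744 on the − strand. Vwf, at chr6:125546774-125686679 on the + strand, encodes the large multimeric protein that bridges collagen and GPIb, and it is made in endothelial cells as well as in megakaryocytes. Vwf had 1179, 23 and 30 counts. The level left was 1.92% of control in TR1 (interval 1.21% to 2.9%) and 2.72% in TR9 (interval 1.83% to 3.91%). The log2 FPKM ratio of Vwf was −5.71 in TR1 and −5.21 in TR9.

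Itga2b encodes the αIIb chain, which is largely restricted to the megakaryocyte lineage and early progenitors. The counts of Itga2b were 1810, 44 and 16, with an FPKM of 95.39, 2.28 and 0.9. The residue was 2.39% of control in TR1 (interval 1.73% to 3.23%) and 0.946% in TR9 (interval 0.539% to 1.54%). Itgb3 encodes the β3 chain, which also pairs with αv in other cell types. The estimated counts of Itgb3 were 1921.46, 26.55 and 27.61, or 1.36% (interval 0.91% to 2.02%) and 1.54% (interval 1.03% to 2.26%) of control. Both subunit genes stayed detectable in both TR libraries. The genes lie 2137877 bases apart on chromosome 11, Itga2b at chr11:102453297-102470122 (− strand) and Itgb3 at chr11:104608000-104670476 (+ strand).

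**Figure D2:**
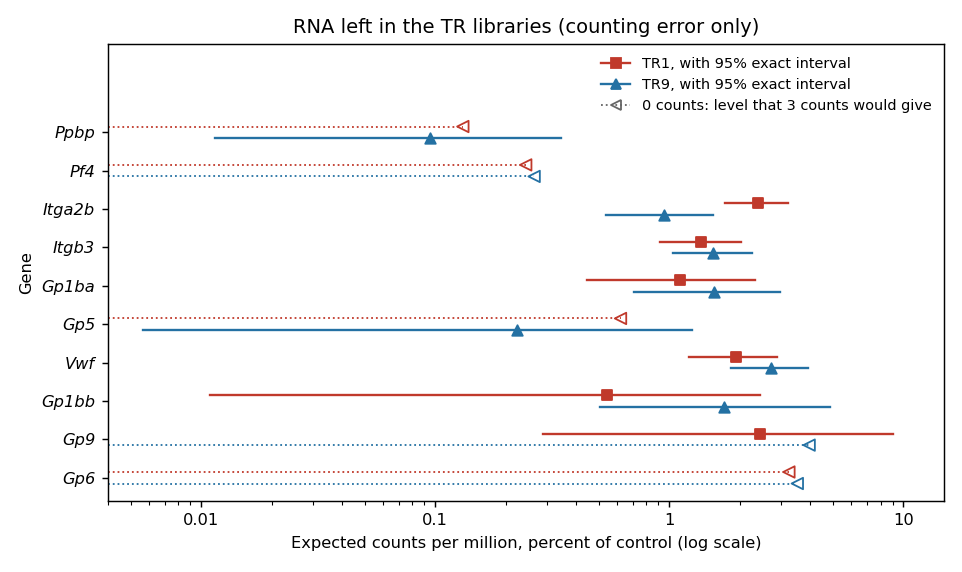
CPM in TR1 and TR9 as a percent of control (log axis) with 95% exact intervals for counting error, and open arrowheads at the level that 3 counts would give where a gene had 0 counts. Itga2b, Itgb3, Gp1ba and Vwf lie between 0.946% and 2.72% in both libraries, whereas Ppbp and Pf4 lie below 0.3%.

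The genes differed in what was left. Itga2b, Itgb3, Gp1ba and Vwf were listed in both TR libraries, with 7 to 44 counts each, and Gp1bb was listed in both with fewer than 4 estimated counts. Pf4 and Gp6 were at 0 in both, Ppbp and Gp5 were at 0 in TR1, and Gp9 was at 0 in TR9. For Gp9 and Gp6 the control counts of 81 and 91 were too low to tell such a difference, since 3 counts would be 3.25% to 3.96% of control. The chemokine genes were high enough to tell it. Pf4 and Ppbp together had 3462, 0 and 2 counts, so that 3 counts in TR1 would be 0.0854% of control and the TR9 interval ended at 0.223%. The integrin genes together, with 3731.46, 70.55 and 43.61 counts, kept 1.86% of control in TR1 (interval 1.46% to 2.37%) and 1.25% in TR9 (interval 0.915% to 1.7%). The intervals of these groups do not overlap in TR9.

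TR1 and TR9 were also compared directly. None of the 10 genes was called in this comparison, in which 2.31% of the 15706 genes tested were called lower in TR9 and 4.34% higher. Pf4 and Gp6, at 0 in both libraries, could not be tested. The gene nearest to a call was Itga2b, which had 44 counts in TR1 and 16 in TR9, a log2 ratio of −1.34 with an interval of −2.27 to −0.49. Its FDR in the exact test was 0.00533, above the threshold of 0.001. The interval of the log2 ratio was −0.64 to 0.99 for Itgb3, −0.33 to 1.35 for Vwf and −1.11 to 2.14 for Gp1ba, so differences of up to those sizes were not detectable at this depth. Itga2b made up 48.5% of the counts of the 2 integrin genes in control (interval 46.9% to 50.1%), 62% of 71 in TR1 (interval 49.7% to 73.2%) and 36.4% of 44 in TR9 (interval 22.4% to 52.2%). The intervals of this share overlapped one another, that of TR1 at its lower edge. Such overlap does not show that the shares were equal, and their difference was not tested.

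**Figure D3:**
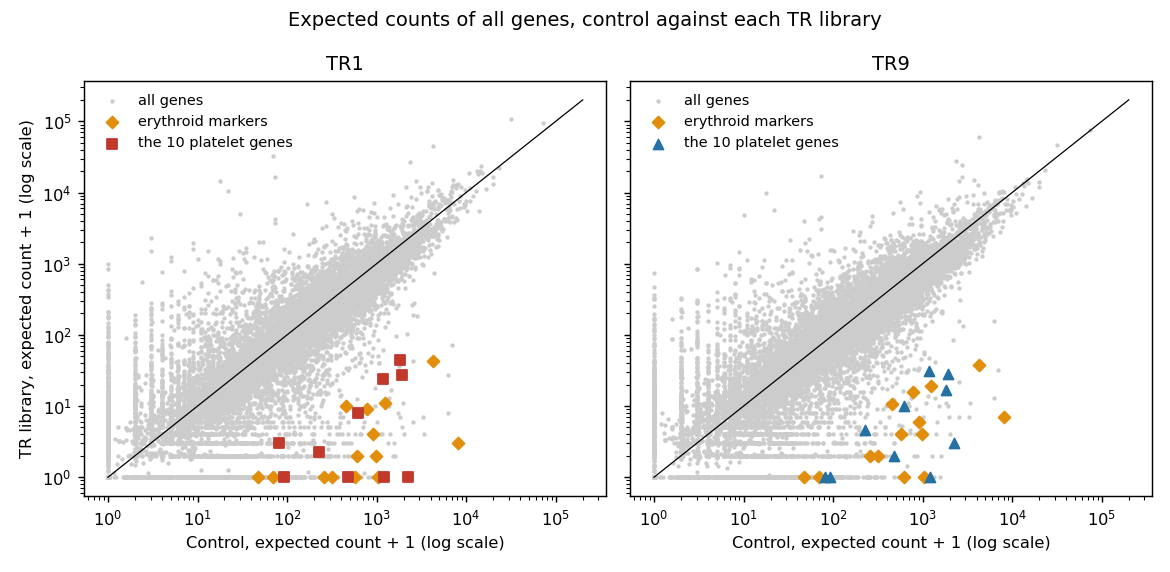
Expected count plus 1 in control (x, log axis) against TR1 and TR9 (y, log axis) for all genes in gray, with erythroid markers as diamonds and the 10 platelet genes as squares or triangles. All 10 platelet genes lie far below the diagonal of equal counts, among the lowest genes for their control count, and the erythroid markers lie in the same area.

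Genes left at or near 0 in both TR libraries were counted over all genes. Of the genes listed in any library, 1055 (6.30%) had over 3 counts in control and at most 3 in both TR1 and TR9. This rule sets no size of loss, since it takes in genes with few counts in control. Pf4, Ppbp, Gp5, Gp6 and Gp9 met it. Itga2b, Itgb3, Gp1ba, Gp1bb and Vwf did not, with over 3 counts in a TR library. Ranked by control count, Ppbp stood first of these 1055 genes and Pf4 eighth. Others among the first 10 were Ank1, Abcb4, Add2, Slc14a1, Pklr and Gfi1b. Ank1 and Add2 encode parts of the red cell membrane skeleton, Slc14a1 a urea transporter of red cells and Pklr the red cell pyruvate kinase. Gfi1b, a repressor needed in erythroid and megakaryocytic cells, had 870, 0 and 1 counts.

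The promoters of the genes were searched for motifs of transcription factor families known in megakaryocytes. RefSeq promoter sequences (GRCm38.p6) were given for 8 of the 10 genes, and Itgb3 and Vwf were not among them. The 250 bases before each start were searched on both strands for GATA motifs (AGATAA or AGATAG, and likewise TGATAA or TGATAG), bound by GATA1 and GATA2, and for ETS motifs (AGGAAG or CGGAAG), bound by factors such as FLI1. The window of Gp1bb lies, over all 250 bases, within an annotated UTR of Septin5 and is not printed. That of Itga2b precedes the RefSeq start, and 180 of its bases are in an exon of another Itga2b transcript in GENCODE, which begins upstream. For Gp5, unlike the others, the bases after the RefSeq start were not found near the beginning of a GENCODE transcript. The promoters of Gp1ba and Gp5, with a GATA and an ETS motif, and those of Pf4 and Itga2b are shown 5′ to 3′ as the strand of the gene reads, with matches in capitals.
Gp1ba, chr11:70638872-70639121, + strand: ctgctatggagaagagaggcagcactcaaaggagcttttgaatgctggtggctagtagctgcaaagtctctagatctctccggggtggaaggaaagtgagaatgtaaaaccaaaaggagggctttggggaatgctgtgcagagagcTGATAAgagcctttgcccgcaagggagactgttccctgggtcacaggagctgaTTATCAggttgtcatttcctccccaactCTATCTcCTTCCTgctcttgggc
Gp5, chr16:30310782-30311031, - strand: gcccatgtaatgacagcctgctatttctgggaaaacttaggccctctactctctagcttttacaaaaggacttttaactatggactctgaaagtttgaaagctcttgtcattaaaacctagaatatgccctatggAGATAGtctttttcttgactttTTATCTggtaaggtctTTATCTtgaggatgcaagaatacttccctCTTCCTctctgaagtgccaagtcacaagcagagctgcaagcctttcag
Pf4, chr5:90772185-90772434, + strand: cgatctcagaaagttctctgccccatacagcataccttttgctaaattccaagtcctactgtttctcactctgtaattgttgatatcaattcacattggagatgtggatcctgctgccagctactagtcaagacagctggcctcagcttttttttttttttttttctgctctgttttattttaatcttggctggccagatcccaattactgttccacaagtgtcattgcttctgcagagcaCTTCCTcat
Itga2b, chr11:102469884-102470133, - strand: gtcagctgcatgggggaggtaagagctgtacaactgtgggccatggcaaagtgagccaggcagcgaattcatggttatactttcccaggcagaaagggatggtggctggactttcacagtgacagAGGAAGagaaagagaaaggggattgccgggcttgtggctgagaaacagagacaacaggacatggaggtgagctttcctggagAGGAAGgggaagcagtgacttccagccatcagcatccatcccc
GATA motifs were found in 4 of the 8 promoters, those of Gp1ba and Gp5 with 3 matches each and those of Gp1bb and Gp6 with 1 each. Of all 27025 promoters of this length, 27.1% held one, and of the 13015 promoters of genes listed in a library 18.7% did. ETS motifs were found in 6 of the 8, with 2 in Itga2b and 1 each in Pf4, Gp1ba, Gp1bb, Gp5 and Gp9, beside 39.0% of all promoters and 44.8% of those of listed genes. In Pf4, Gp1ba and Gp9 the ETS match began 9 to 16 bases before the start. Both motifs were present in Gp1ba, Gp1bb and Gp5, beside 9.38% and 8.17% of promoters. The half-site of retinoid receptors (AGGTCA or GGGTCA), not in capitals above, was found in 4 of the 8, with 2 in Ppbp and 1 each in Gp1ba, Gp1bb and Gp6, beside 23.5% and 21.8% of promoters. The matches did not overlap one another, and they describe the letters of these windows without showing that a factor binds there.

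The genes around the 10 in platelet biology were counted in 11 further lists, beside shares over all genes of 8.39% called lower in both TR libraries and 5.67% called higher in both. Of 19 other platelet receptor genes, 14 were called lower and 0 called higher in both leukemias, with medians of −4.40 and −3.08. Treml1, an alpha-granule membrane receptor, had 249, 0 and 0 counts. Clec1b, the podoplanin receptor, had 179, 8 and 4. Not all genes called lower came this near to 0. P2rx1 kept 20.5% of control in TR1 and 36.7% in TR9, and P2ry1 kept 28.5% and 18.2%. The exception at high level was Cd9, a tetraspanin of many blood cells, with 669, 274 and 563 counts and a call in TR1 only.

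Genes of the molecules that signal beneath these receptors were counted in the same way. Of 14 genes of receptor-proximal signaling, 1 was downregulated in both TR libraries, and the medians were 0.18 in TR1 and −0.03 in TR9, the latter turning to 0.06 or 0.07 under other scalings. Fcer1g, the signaling chain that pairs with glycoprotein VI, had 362, 1038 and 524 counts, an increase called in TR1 only. Syk, the kinase that it recruits, had 1256, 1109 and 1060 counts. Both genes are also used in myeloid cells. Of 11 genes of integrin activation, 4 were downregulated in both, with medians of −0.62 and −0.79. Tln1, whose product talin opens αIIbβ3 from inside, had 6941, 4605 and 4037 counts and was not called. Fermt3, which encodes kindlin-3, fell from 2296 counts to 663 and 877, and Rap1b, a small GTPase upstream of talin, fell from 3045 to 1530 and 1411, just past the threshold with log2 FPKM ratios of −1.02 and −1.01. Under the other scalings the call of Rap1b was lost, with ratios of −0.78 and −0.91 by TMM, which left 3 of the 11 genes.

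Other genes of alpha-granule cargo split by direction. Of 20 listed, 7 were downregulated in both TR libraries and 5 upregulated in both, with medians of −3.38 and −0.78. These medians rest on genes of low level, since a pseudocount of 1 FPKM gave −0.70 and −0.56 and a minimum of 1 FPKM gave −3.23 and −2.84. Sparc, a matrix-binding protein, had 1773, 35 and 17 counts. Mmrn1, which stores factor V, had 707, 4 and 9, and Thbs1, encoding thrombospondin, had 2171, 102 and 85. The genes that rose were F13a1 (coagulation factor XIII), Fn1 (fibronectin), Clu (clusterin), Srgn (serglycin) and Vegfa, all of which are also made by other cells. F13a1 rose from 2118 counts to 11852 and 6048, and Srgn rose from 4099 to 13461 and 12671. The genes for fibrinogen, which platelets take up from plasma, were not listed.

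**Figure D4:**
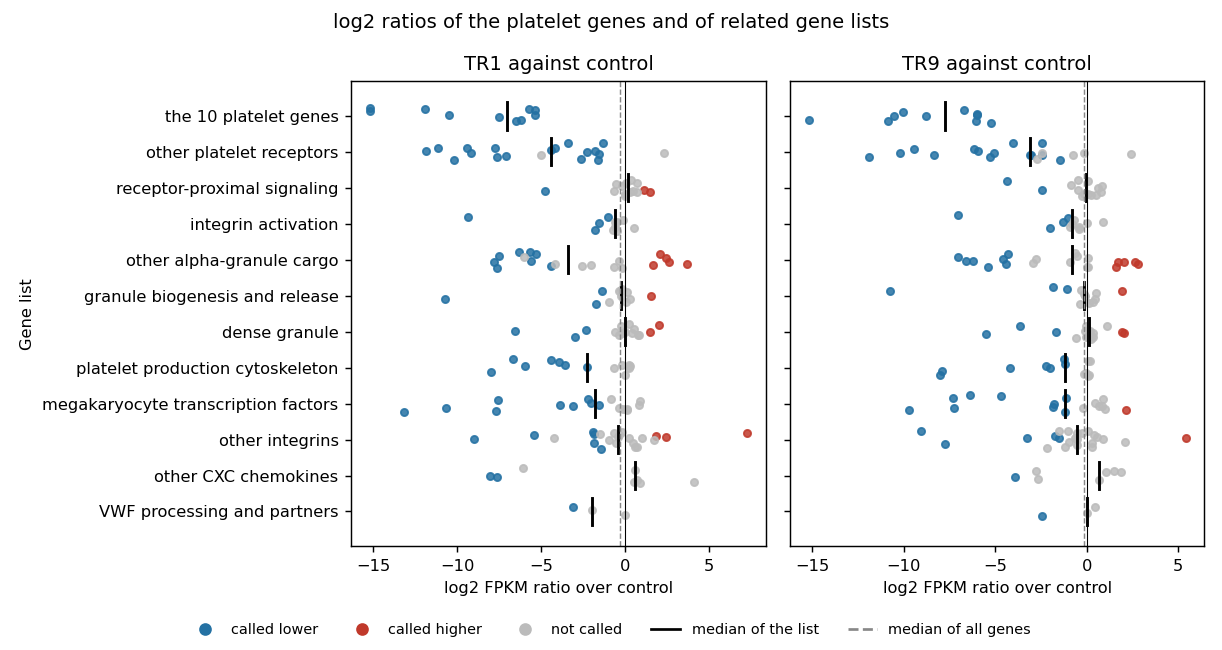
Log2 FPKM ratio over control of each gene in 12 lists, for TR1 and TR9, with calls by color, the median of each list as a black bar and the median of all genes as a dashed line. The 10 platelet genes lie to the left of −5 in both panels, and the medians of receptor-proximal signaling, granule biogenesis and dense granule genes lie between −0.25 and 0.18.

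The machinery that builds and releases granules was counted next. Of 12 such genes, 2 were downregulated and 1 was upregulated in both TR libraries, with medians of −0.25 and −0.12. The paralogs Rab27a and Rab27b, which help granules dock, went in opposite directions. Rab27b had an estimated 670.27, 0 and 0.44 counts, while Rab27a had 672.33, 1962.97 and 2367.92. Nbeal2, needed for alpha granules to form, had 630, 538 and 793 counts and was not called. Of 15 dense granule genes, 3 were downregulated and 2 (Lyst and Slc17a9) upregulated in both, with medians of −0.01 (0.20 to 0.23 under other scalings) and 0.15. Of 13 genes of the platelet-producing cytoskeleton, 7 were downregulated in both, with medians of −2.25 and −1.16. Tubb1, the β-tubulin particular to platelets, had 824, 8 and 3 counts, whereas Myh9 had an estimated 5805.49, 7038.91 and 6296.83 and Flna, whose product anchors GPIb to actin, had 5910, 5874 and 5804.

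Among 16 transcription factors of megakaryocytes, 9 were called lower and 0 called higher in both leukemias, with medians of −1.79 and −1.17. Gata1 had 999, 5 and 6 counts, and Zfpm1, which encodes its cofactor FOG1, had 1523, 1 and 9. Lmo2 had 1235, 278 and 538 counts and Ldb1 had 1663, 563 and 672, and both were called lower in both TR libraries. Fli1, of the ETS family, had 596, 644 and 752 counts, and Runx1 had 789, 713 and 1358. Nfe2 had 893, 839 and 1646 counts, and Fli1, Runx1 and Nfe2 were not called against control. Ets1, also of the ETS family, had 247, 440 and 1032 counts and was called higher in TR9 only. Some of these results lie near the threshold. The log2 FPKM ratio was 0.98 for Nfe2 in TR9 and 0.82 for Ets1 in TR1. Lyl1, with 464, 871 and 822 counts, had ratios of 0.88 and 0.92 and was not called. Under the other scalings Nfe2 was called higher in TR9, and Ets1 and Lyl1 were called higher in both TR libraries. The relation of these factors to the 10 genes was not tested.

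Related integrin and chemokine genes gave mixed calls. Of 23 other integrin genes listed, 4 were downregulated and 1 was upregulated in both TR libraries, with medians of −0.43 and −0.55. Itga2, the collagen-binding α2 chain of platelets, had 122, 0 and 0 counts. Itgav, the other partner of β3, had 111, 183 and 152 counts and was not called. Itgb2l, a β2-like chain, rose from 1 count to 159 and 40. Of 8 other CXC chemokine genes listed, 1 was downregulated in both, Cxcl12, with 122, 1 and 6 counts. Cxcl5, which lies beside Ppbp at chr5:90759360-90761624, had an estimated 17.93, 0 and 2.48 counts and was called lower in TR1 only. Of the 3 partners of von Willebrand factor, F8 was downregulated in both, with 53, 6 and 9 counts, and Furin, which cuts its propeptide, had 359, 362 and 466.

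Markers of other cell types also shifted, and their lists differed in direction. The 14 erythroid markers listed were all downregulated in both TR libraries, and their sum fell from 3585 CPM to 13.5 and 19.3 CPM, with 6 and 4 of them at 0. That is 0.378% and 0.538% of control, beside 1.04% and 0.968% for the 10 platelet genes. Mast cell and basophil markers fell in 7 of 9 genes, from 1199 CPM to 99.6 and 91.2. Granulocyte markers rose in 10 of 10 genes in TR1 and in 9 of 10 in TR9, from 7732 CPM to 42082 and 33723. Stem and progenitor markers summed to 766, 338 and 461 CPM. Of these 10 genes, 7 were called lower and 2 higher in TR1, and 5 and 1 in TR9. Kit, with 2115, 853 and 1684 counts, was the largest part of this sum in each library. Endothelial markers, which bear on Vwf, summed to 124, 86.2 and 168 CPM. In this list of 13, 8 were called lower and 1 higher in TR1, and 5 and 2 in TR9. At 0 counts were 7 in TR1 and 5 in TR9, beside 1 in control. From this list Cdh5, Kdr and Tek had 24, 90 and 63 counts in control. They had 0 counts in TR1, and in TR9 they had 1, 0 and 0. Of the 13, Tie1 with 115, 16 and 311 counts and Erg with 155, 419 and 499 held most of the sums in the TR libraries, and Erg was called higher in both. Lymphoid markers summed to 18.3, 14.4 and 169 CPM, of which Igll1, a part of the pre-B cell receptor, held 847 of 868 counts in TR9, where 7 of 10 markers were at 0. Monocyte and macrophage markers were called lower in 8 of 10 genes in TR1 and in 7 of 10 in TR9. Their sum rose all the same, from 333 CPM to 655 and 1067, with the adhesion molecule gene Vcam1 at 471, 3139 and 5110 counts. The part of these shifts in the levels of the 10 genes was not tested. Syk, Thbs1, Mmrn1, Clec1b, Nbeal2, Tubb1, Zfpm1, Fli1, Itga2, Itgav, Rab27b, Septin5, Cdh5, Kdr, Tek, Eif2s3y and Uty were named for their roles after their values were seen. Rasgrp2, P2rx1 and P2ry1 were likewise named after their values were seen.

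**Figure D5:**
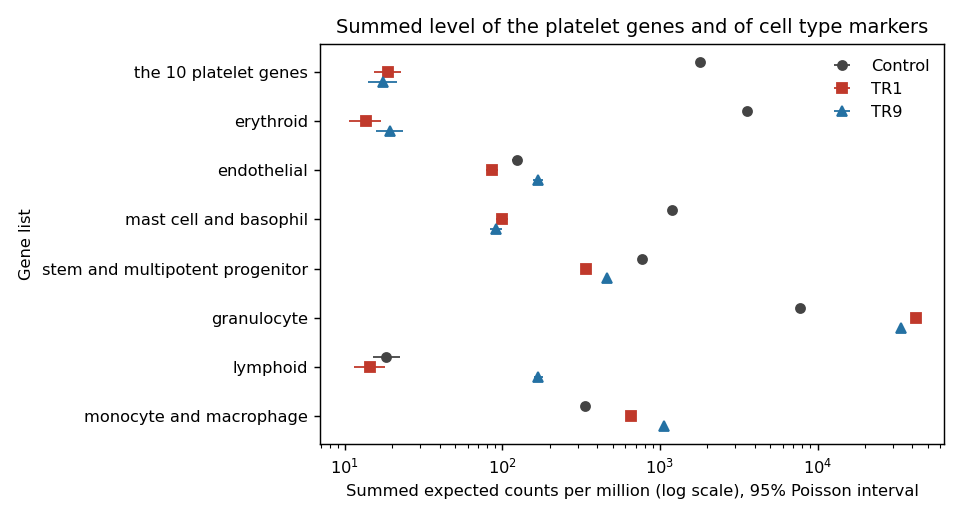
Summed CPM (log axis) with 95% Poisson intervals for the 10 platelet genes and for 7 lists of cell type markers in the 3 libraries. The platelet genes drop from 1798 to 18.6 and 17.4 and the erythroid markers from 3585 to 13.5 and 19.3, while granulocyte markers rise to 42082 and 33723.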

How the data were processed

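RNA-seq of 3 libraries (control, TR1 and TR9, each of 3 pooled mice) was used, grouped by the sample labels. BWA, Bowtie and RSEM were the authors' tools, after read filtering; the submitters' processing notes name mm9, and tool versions are not given in the sources used here. The deposited expected counts are estimates without normalization, in which RSEM shares out reads that fit more than 1 gene, so 19.9% to 21.2% of listed genes were not whole. The FPKM that the authors deposited are scaled for gene length and library total. No strand setting is stated.

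The 10 genes and all lists were chosen with earlier results of these data known. Of 16742 IDs, 16698 were found in RefSeq's gene table (GRCm38.p6), coordinates were taken from GENCODE M21 (GRCm38), and promoters from RefSeq GRCm38.p6. Rounded expected counts of 2 libraries entered a conditional exact Poisson (binomial) test in scipy 1.17.1, and p-values were adjusted by Benjamini-Hochberg over genes listed in either library. Calls needed an FDR of at most 0.001 and a log2 FPKM ratio of 1 or more in size, with FPKM under 0.01 set to 0.01. Folds against 0 counts were computed against 3 counts and are lower bounds. Percents of control are ratios of CPM.

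Named genes were the 10 themselves; of each list, the 3 with the highest control FPKM, the highest in TR1 and in TR9 and those called higher in both; the 10 genes highest in control among those with at most 3 counts in both TR libraries; and list genes called between TR9 and TR1. Not all of these are printed, 1 of these 10 is unnamed in that table, and some genes were named after their values were seen, as the text says. Alternatives were a pseudocount of 1 FPKM, a floor of 0.001 FPKM, minima of 1 FPKM or 10 counts, TMM, median of ratios and upper quartile scaling, edgeR's exact test (edgeR 4.0.16, R 4.3.3) at an assumed coefficient of variation of 0.4, an FDR of 0.05 and a log2 ratio of 2 or more in size. The steps were tested on simulated data. Scripts ran in Python 3.11.15 with pandas 2.3.3, numpy 2.4.6 and matplotlib 3.10.9.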

Additional observations from a re-analysis of the deposited data

Results flagged for a closer look

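The TR1 and TR9 leukemias were compared with the same control, and a direct exact Poisson test between their reads was used to find genes whose level differed between them. None of the 10 platelet genes was called. Of 153 other genes listed in the 11 related lists, 20 were called, 12 higher and 8 lower in TR9, in libraries without replicates. Over all genes tested the shares were 4.34% higher and 2.31% lower. At an assumed coefficient of variation of 0.4, edgeR's exact test called only 13 genes higher and 2 lower over all genes. Not all of the 20 could therefore keep their call in that test. The log2 FPKM ratio of TR9 over TR1 was 4.79 for Mylk, 3.40 for Angpt1, 2.67 for Tuba8, 2.33 for Itga1, 1.91 for Itgb5, 1.57 for Pdlim1, 1.34 for Ets1, 1.26 for Mef2c, 1.16 for Cd9, 1.09 for Nfe2, 1.04 for Lmo2 and 1.02 for Runx1. Some of these rest on few counts in TR1. Mylk, Angpt1 and Tuba8 had 4, 3 and 15 counts in TR1 and 101, 29 and 88 in TR9. Among the genes higher in TR9 are the transcription factors Ets1, Mef2c, Nfe2, Lmo2 and Runx1. The ratios of Nfe2, Lmo2 and Runx1 were just past the threshold of 1. The TMM factors, −0.24 for TR1 and −0.11 for TR9 in log2, would take these 3 ratios below it. Lower in TR9, the ratio was −2.65 for Itga9, −2.09 for Itgam, −1.87 for Itgb2l, −1.78 for Fyn, −1.67 for Fn1, −1.59 for Lat, −1.44 for Itga6 and −1.19 for Itga4. Of the 23 other integrin genes listed, 5 were lower and 2 higher in TR9.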

How the results depend on the processing

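All 10 genes kept their direction and their call in TR1 and in TR9 under every alternative run, including edgeR's exact test at the assumed coefficient of variation of 0.4 (200 of 200 gene values). Some alternatives could not end a call. These were the lower floor, the looser FDR and the minima, which control values of at least 14.62 FPKM and 81 counts met. The scalings, with factors of −0.24 to −0.10 in log2, could not end one either. Nor could the log2 cutoff of 2, since every main ratio was −5.21 or below. The highest log2 ratio of the 10 genes lay between −5.38 and −3.77 in TR1 and between −5.21 and −3.92 in TR9, the smallest sizes coming with a pseudocount of 1 FPKM. That pseudocount moved the median of the 10 genes to −4.86 in TR1 and −4.83 in TR9, since it shrinks ratios of low values. With a minimum of 1 FPKM the median between TR9 and TR1 turned from 0.49 to −1.34, because Itga2b alone passed it, and at an FDR of 0.05 Itga2b was called lower in TR9 than in TR1 (1 gene).

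The TMM factors relative to control were −0.24 (TR1) and −0.11 (TR9) in log2, and dividing by them raised TR ratios by that size except for genes at the FPKM floor. The calls were then 1615 lower and 1673 higher in TR1 (2120 and 1317 without it), and 1503 and 1717 in TR9 (1766 and 1527). Under TMM, median of ratios and upper quartile scaling the dense granule median in TR1 turned to 0.23, 0.23 and 0.20 and the receptor-proximal signaling median in TR9 to 0.07, 0.06 and 0.06, and the all-gene median between TR9 and TR1 was −0.01 by median of ratios. The median of other CXC chemokines turned to −7.85 in TR1 under either minimum, and in TR9 to −2.77 at 1 FPKM and −3.34 at 10 counts, fewer genes being left. Megakaryocyte transcription factors called higher became 2 in TR1 (Ets1 and Lyl1) and 3 in TR9 (Ets1, Lyl1 and Nfe2) under the scalings.

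At the assumed variation of 0.4, edgeR's exact test called 347 genes lower and 170 higher in TR1, 287 and 161 in TR9, and 2 and 13 between TR9 and TR1, and the related lists had 27 and 27 genes lower where the Poisson test called 60 and 56. With a log2 ratio of 2 or more in size required, the counts were 1133 and 685, 928 and 737, and 135 and 283. No paired analysis was possible because each group has 1 library. For the same reason no replicate could be left out. Depth limits Gp6 and Gp9 most, whose control counts of 91 and 81 allow no bound beyond 30.8-fold.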
